A study of Mus musculus with 4 samples.

Results

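The genes described here encode the mitochondrial respiratory chain and the ATP synthase. They were chosen by symbol: rows starting with mt-, with Ndufa, Ndufb, Ndufs, Ndufv or Ndufc and a digit, with Uqcr, with Cox4 to Cox8 or with Atp5, plus Sdha, Sdhb, Sdhc and Sdhd. The rule found 96 of the 18825 genes in the table, of which 83 are encoded in the nucleus and 13 in the mitochondrial genome (mt- genes). They were counted by droplet-based 3′ single-cell RNA sequencing in 3002 myeloid cells from the atherosclerotic aorta of Apoe-/- mice. These mice lack apolipoprotein E, a lipoprotein ligand, and had been fed a western diet for 13 weeks. The starting material was live aortic cells carrying CD45, the surface protein of leukocytes. All cells share genotype, diet and tissue, so the comparisons are between cell clusters and not between treatments. The 4 libraries, 1-1, 1-2, 2-1 and 2-2, form 2 biological replicates. The submitters state 6 mice, and no label used here ties a cell to a mouse.

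The authors placed the cells in 14 clusters, numbered 0 to 13. Levels are given as CPM, counts per 1000000 unique molecular identifiers (UMIs), after raw counts were summed per cluster and biological replicate, so each cluster has n = 2. Values are written as replicate 1 and replicate 2, or as mean ± SD over these 2 sums.

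Complex I (NADH dehydrogenase) and complex II (succinate dehydrogenase) pass electrons to ubiquinone, complex III hands them to cytochrome c, and complex IV (cytochrome c oxidase) reduces oxygen. Complexes I, III and IV pump protons, and complex V, the ATP synthase, uses the gradient to make ATP. The mitochondrial genome encodes a few hydrophobic core subunits and all other subunits are made from nuclear transcripts. In macrophages the chain also serves signalling, and inflammatory activation is known to shift its use. Neutrophils are known for few mitochondria and a reliance on glycolysis.

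Among the nuclear members, 35 belong to complex I, 4 to complex II, 8 to complex III, 19 to complex IV and 15 to complex V. Ndufa4 and Ndufa4l2 were placed with complex IV, where Ndufa4 protein is found. Atp5s and Atp5sl carry the ATP synthase name as accessory genes. Of the 13 mt- genes, 7 belong to complex I, 1 to complex III, 3 to complex IV and 2 to complex V. Nuclear members held 195928 UMIs, 1.23% of the total, and mt- genes held 666413 UMIs, 4.19%. In the test, 75 nuclear members and all 13 mt- genes passed the filter on low counts. The 8 nuclear members that did not pass were Atp5sl (170 UMIs in all), Cox6b2 (84), Cox6a2 (34), Atp5s (27), Cox7a1 (25), Cox4i2 (4), and Cox7b2 and Cox8b with none.

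Libraries held 1698585 to 5954716 UMIs, and no barcode occurred in more than 1 library. Of the marker lists, cluster 0 raised 12 of 12 resident macrophage genes at least 2-fold over the mean of the other clusters, cluster 8 raised 11 of 12 foamy macrophage genes, and cluster 7 raised 8 of 8 neutrophil genes. Clusters 4, 11 and 12 carried cDC2, cDC1 and mature dendritic cell markers (6 of 8, 8 of 8 and 9 of 9), cluster 5 monocyte markers (10 of 12) and cluster 6 proliferation markers (8 of 9). Cluster 9 raised 6 of 6 fibroblast genes. Clusters 1, 2, 3, 10 and 13 are called by number. Of these, clusters 1, 2, 3 and 13 were grouped with clusters 0 and 8 as macrophage clusters. They raised 1, 6, 3 and 1 of 10 general macrophage genes 2-fold. These genes summed to 26301 and 24530 CPM in cluster 13. Cluster 10, left out of the group, raised 0 and overlapped cluster 13 with 26309 and 19179 CPM. Clusters 3, 8 and 10 were shallow, with medians of 834, 980 and 805 UMIs per cell against 4404 in cluster 0. In clusters 3 and 8 Malat1, a nuclear non-coding RNA, stood at 1117 ± 987 and 389 ± 145 CPM, against 21559 ± 91.4 in cluster 0. Genes induced by tissue dissociation, summed over 12, stood at 52210 and 57360 CPM in cluster 0 and at 22632 and 26457 in neutrophil-like cluster 7. They were low in both cluster 3, at 2523 and 1504 CPM, and cluster 8, at 1383 and 1310.4. Haemoglobin and other erythroid genes in cluster 3 reached 27912 CPM in replicate 1 and 42.4 in replicate 2, nearly all from 1 cell, without which the nuclear sum over both replicates was 19540 against 19328 CPM with it. The authors' table holds no cell above 9.99% mt- counts, which limits how high mt- levels can be.

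The summed nuclear members were highest in foamy-macrophage-like cluster 8, at 23241 and 24803 CPM, and lowest in neutrophil-like cluster 7, at 8067 and 6981 CPM. The ratio of these means was 3.19. Cluster 3 came next below cluster 8 with 18961 and 19541 CPM. Both clusters stood above every other cluster in both replicates. A middle group followed, from cluster 11 at 15257 ± 752 through clusters 13, 4, 6, 5, 9 and 12 to cluster 10 at 12284 ± 150. Neighbours in that group overlapped between replicates, except cluster 6 over cluster 5 and cluster 12 over cluster 10. The large macrophage clusters were lower: cluster 1 had 11542 ± 107, cluster 0 had 9658 ± 538 and cluster 2 had 9367 ± 250, and the last pair overlapped. Cluster 8 was thus 2.49 times and cluster 3 1.99 times the level of cluster 0.

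**Figure D1:**
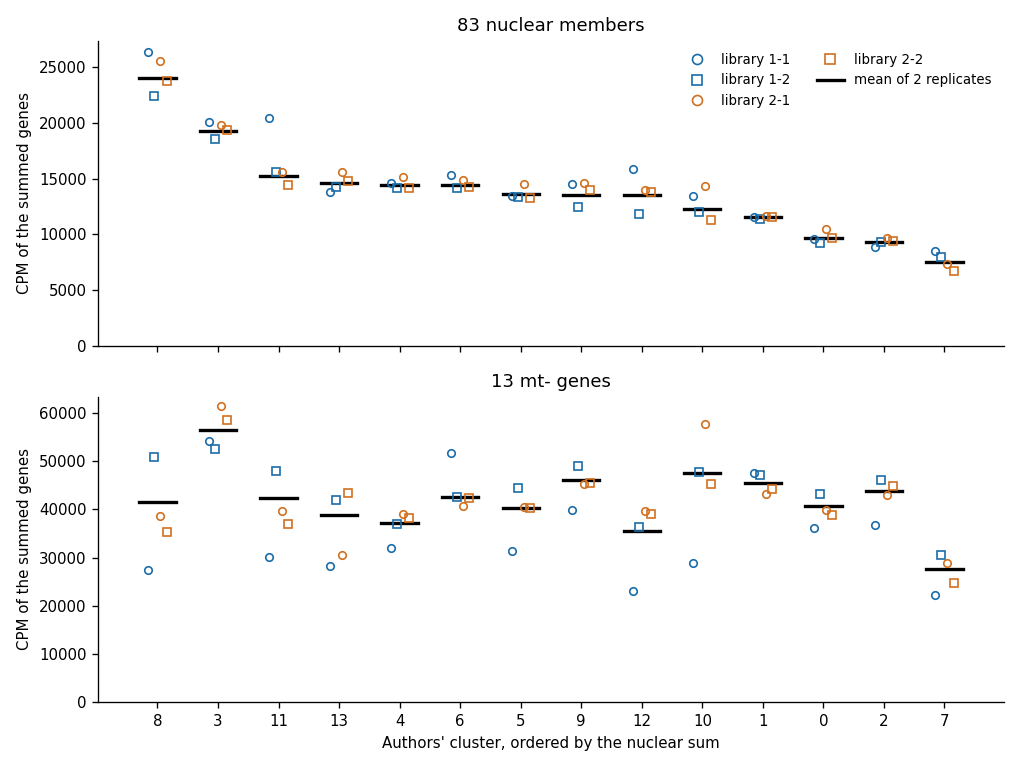
Summed level of the 83 nuclear members (top) and of the 13 mt- genes (bottom), in CPM on a linear axis from 0, for each authors' cluster. Open symbols are the 4 libraries and bars are means of the 2 biological replicates. Nuclear levels run from 24022 CPM in cluster 8 to 7524 in cluster 7, while mt- levels peak in cluster 3.

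In cells under 3000 UMIs, an alternative chosen after seeing the data, cluster 8 held 23733 and 24054 CPM, cluster 3 held 19537 and 19467, cluster 0 held 7936 and 9068, and cluster 7 held 7331 and 6842. Cluster 10, as shallow as cluster 8, had 11906 and 12390 CPM in such cells. Cluster 9 differed with depth: its 13 shallow cells of replicate 2 had 21172 CPM, above the 19467 of cluster 3, and its deeper cells of that replicate had 13879.8. In the same cells cluster 1 (8398 and 8882 CPM) overlapped cluster 0 in both directions. Cluster 3 cells without a Malat1 UMI had 19349 and 19784 CPM and those with one had 17167 and 18044. For cluster 8 the corresponding values were 23582 and 25349 without, and 20612 and 21892 with. Ribosomal protein genes took 17.0% and 19.8% of UMIs in cluster 8 and 21.02% and 24.2% in cluster 3. Dendritic clusters 4 (18.8% and 19.6%) and 11 (20.5% and 19.8%) had shares like that of cluster 8 with lower nuclear sums. The shares were 10.7% and 11.8% in cluster 0 and only 6.77% and 5.75% in cluster 7. The part of depth, Malat1 and ribosomal share in the nuclear levels was not tested beyond these values. Across the 14 clusters the nuclear sum had a Pearson correlation of 0.77 with the ribosomal share and of -0.83 with Malat1. These are descriptions, since the clusters share libraries and the sums share a denominator.

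The mt- genes did not follow this order. Their sum was highest in cluster 3, at 52944 and 59909.8 CPM, and lowest in cluster 7, at 28947 and 26234. Cluster 8 had 45646 and 37293 CPM, which overlapped cluster 0 with 41891 and 39354. Most neighbours in the order overlapped. Over the 14 clusters, the nuclear and mt- sums had a Pearson correlation of 0.40 and a Spearman correlation of 0.12. Library 1-1 had the lowest mt- level of the 4 libraries in 11 of 14 clusters, and within cluster 8 libraries 1-1 and 1-2, both of replicate 1, differed most, at 27346 and 50776 CPM. That library held only 9 cells of cluster 8.

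Nuclear counts per 100 mt- counts set the clusters apart in another way. Cluster 8 had 58.7 ± 11.02, against 38.8 ± 1.27 in dendritic cluster 4, 34.2 ± 2.26 in cluster 3, 27.2 ± 0.891 in cluster 7 and 21.4 ± 0.426 in cluster 2. Cluster 8 was high in nuclear transcripts only, and its 2 replicates, 50.9 and 66.5, were both above those of every other cluster named here.

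**Figure D2:**
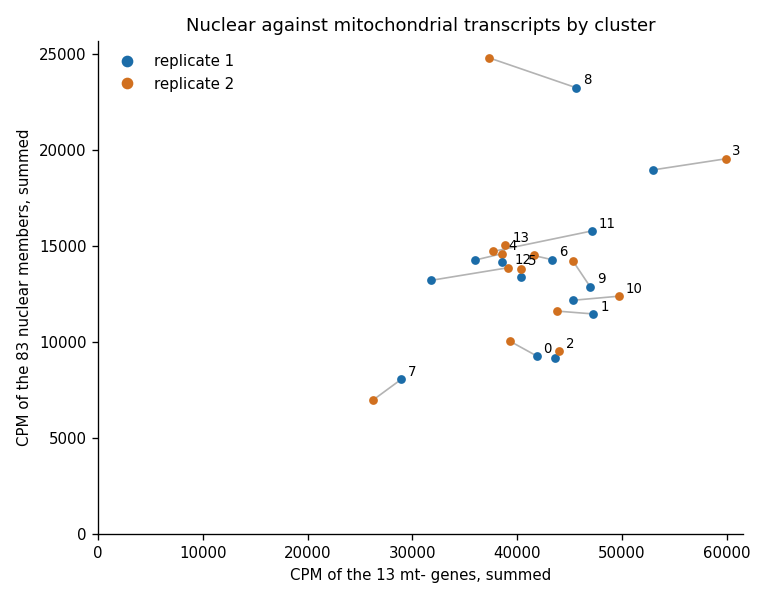
Summed nuclear members (vertical axis, CPM) against summed mt- genes (horizontal axis, CPM), both from 0, with 1 point per cluster and biological replicate and a grey line joining the 2 replicates of a cluster. Cluster 8 is the highest in nuclear members and lies within the mt- range of the other clusters, cluster 3 is high in both, and cluster 7 is low in both.

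By complex, the nuclear genes of cluster 8 stood at 2.39 times cluster 0 for complex I, 1.51 for complex II, 2.23 for complex III, 2.88 for complex IV and 2.39 for complex V. Complex IV reached 8099 CPM there against 2813 in cluster 0. In cluster 7 the ratios to cluster 0 were 0.84, 0.63, 0.61, 0.85 and 0.73 in the same order. The complexes did not move in step everywhere. In mature-dendritic-cell-like cluster 12, complex II was at 0.66 and complex I at 1.13 times cluster 0, while complexes III, IV and V were at 1.60, 1.53 and 1.55. Of the 75 nuclear members tested, 49 had their highest mean in cluster 8 and 11 in cluster 3, and 40 had their lowest in cluster 7.

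**Figure D3:**
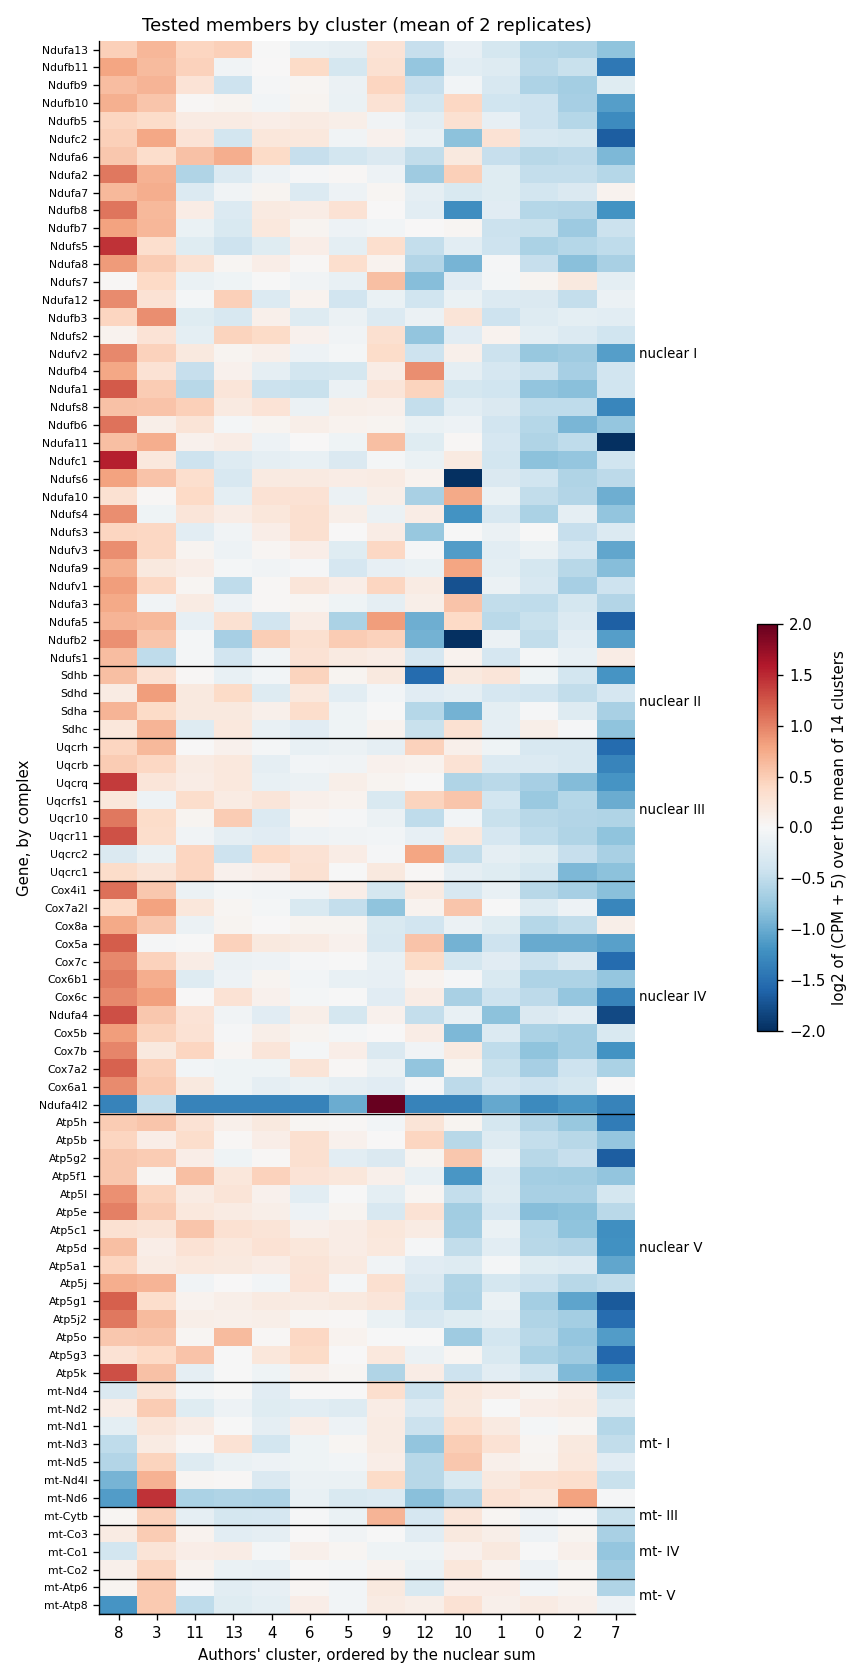
Level of each tested member (rows, grouped by complex, nuclear above and mt- below) in each cluster (columns, ordered by the nuclear sum), as log2 of (CPM + 5) over the mean of the 14 clusters. Colours stop at -2 and 2, red is above and blue below the mean. The red columns of clusters 8 and 3 hold for the nuclear blocks, and in the mt- blocks cluster 8 is pale or blue.

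Cluster 8 was compared with the mean of macrophage clusters 0, 1, 2, 3 and 13, to ask how foamy-macrophage-like cells differ from other aortic macrophages. By edgeR's quasi-likelihood test at a Benjamini-Hochberg adjusted p under 0.05, 40 of 75 nuclear members were higher and 0 lower in cluster 8. At an unadjusted p under 0.05, 53 were higher and 0 lower, and DESeq2 also called 0 lower. Of all 6657 genes tested, 6.29% were called higher and 12.9% lower. For mt- genes, 0 of 13 were higher and 5 lower. The median log2 fold change was 0.91 for nuclear members, -0.45 for mt- genes and -0.93 for all genes tested, 1728 of which had no count in cluster 8. Nuclear members are also more abundant than most tested genes, with a median of 161 CPM against 38.1. The authors drew the clusters from these same counts, so p-values here and below are too small and serve to describe the clusters. They measure the spread between the 2 replicates left after their overall difference was removed, pooled over all 14 clusters and not taken from cluster 8 alone.

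Complex IV had the highest share, with 11 of 13 tested members higher, then complex V with 11 of 15. Complex I had 15 of 35, complex III 3 of 8 and complex II 0 of 4. Cox4i1, the regulatory subunit 4 of cytochrome c oxidase, stood at 1802 and 1829 CPM in cluster 8. Cluster 3 had 1180 and 1259 of this gene, cluster 13 had 810.2 and 822, and resident-macrophage-like cells had 554 and 584. The replicates of cluster 8 lay above all others, and the log2 fold change was 1.25 (SE 0.14, adjusted p = 4.9e-09). Cox5a, another nuclear subunit of complex IV, had 946 and 805 CPM in cluster 8 against 552 and 485 in cluster 13 and 192 and 179 in cluster 0. Its fold change was 1.58 (SE 0.17, adjusted p = 4.13e-09). Ndufa4 had 528 and 601 CPM against 115 to 358 in the single replicates of the other macrophage clusters.

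The nuclear members with the largest changes came from 3 complexes. Ndufc1, an accessory subunit of complex I, had 146 and 328 CPM in cluster 8 and 34.4 and 48.9 in cluster 0, with 2.08 as the log2 fold change over the other macrophage clusters (SE 0.32, adjusted p = 5.03e-06). Both replicates were above those of all other clusters, although they differed widely between themselves. Ndufs5, also of complex I, had 328 and 300.3 CPM, against 155 and 132 in cluster 3 and 63.9 and 78.0 in cluster 0. Uqcrq, a small subunit of complex III, had 491 and 478 CPM against 179 and 249.9 in cluster 3 and 107 and 116 in cluster 0. Atp5k, the e subunit of the ATP synthase, was uneven, with 91.0 and 259 CPM in cluster 8 and 106 and 104 in cluster 3, so these clusters overlapped. Its call (log2 fold change 1.60, SE 0.35, adjusted p = 0.000767) was lost when either library of replicate 2 was left out.

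Of the 26 members named for this comparison, 11 kept their call under every alternative: Cox4i1, Cox5a, Cox6b1, Cox7a2, Ndufa1, Ndufa4, Ndufc1, Ndufs5, Uqcrq, Atp5e and Atp5g1. Both replicates of cluster 8 lay above both of every other macrophage cluster for 31 of 75 nuclear members, where 6.68% of all tested genes did. They lay above all 13 other clusters for 25 members, against 3.47% of tested genes. No mt- gene did either. The number of nuclear members called higher ranged from 19, without library 2-2, to 38, without library 1-1, when 1 library was left out, and was 52 with DESeq2.

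**Figure D4:**
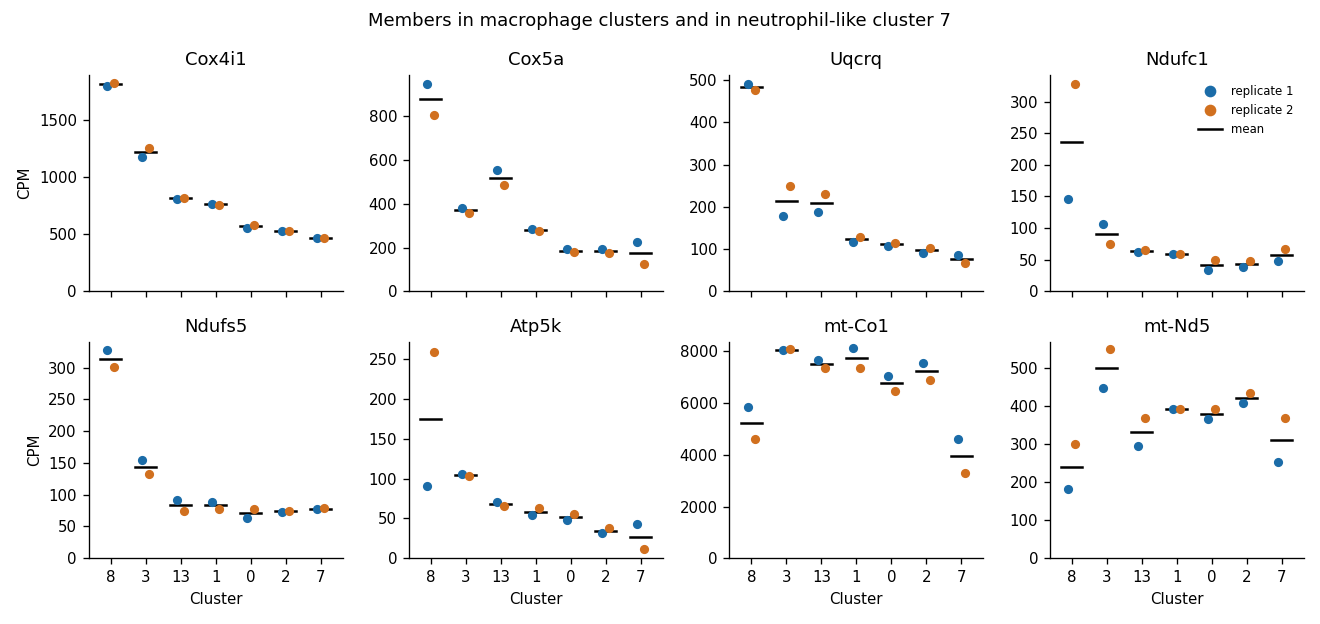
Level in CPM (vertical axes from 0) of 6 nuclear members and 2 mt- genes in the macrophage clusters and in neutrophil-like cluster 7, with 1 point per biological replicate and a bar at the mean. The nuclear members peak in cluster 8, where Ndufc1 and Atp5k differ widely between replicates, while mt-Co1 and mt-Nd5 are lower in cluster 8 than in cluster 3.

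The mt- genes called lower in cluster 8 were mt-Co1, mt-Nd3, mt-Nd4, mt-Nd4l and mt-Nd5, which encode subunit 1 of cytochrome c oxidase and core subunits of complex I. mt-Co1 had 5842 and 4628 CPM in cluster 8 against 7048 and 6466 in cluster 0 and 8032 and 8090 in cluster 3 (log2 fold change -0.55, SE 0.14, adjusted p = 0.00407). mt-Nd5 had 182 and 300.3 CPM against 366 and 394 in cluster 0. mt-Co2 and mt-Co3, from the same complex as mt-Co1, were not called, with 8081 and 6416 CPM and 11066 and 8177 CPM in cluster 8. mt-Co1 lost its call in 2 of 10 alternatives and mt-Nd5 in 7 of 10. The count of 5 fell to 0 without library 2-2 and to 1 with DESeq2.

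Cluster 8 and cluster 3, both shallow and poor in Malat1, were compared with each other. Of the nuclear members 3 of 75 were higher in cluster 8 and 0 lower, with a background of 1.91% higher and 4.52% lower. These were Ndufc1 (log2 fold change 1.39, SE 0.38, adjusted p = 0.0171), Cox5a (1.09, SE 0.22, adjusted p = 0.000997) and Uqcrq (1.00, SE 0.27, adjusted p = 0.0151). Cox5a was the clearest, with 946 and 805 CPM against 382 and 358. The mt- genes went the other way: 8 of 13 were lower in cluster 8, among them mt-Atp6 with 10010.0 and 9187 CPM against 12402 and 14209, and mt-Co1. Medians on the log2 scale were 0.19 for nuclear members, -0.71 for mt- genes and -0.58 for all genes. With DESeq2 the all-gene median moved to -0.06, 13 nuclear members were higher and 1 mt- gene was lower. Without library 2-2 no member was called in either set.

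In neutrophil-like cluster 7, compared with the mean of the other 13 clusters, 32 of 75 nuclear members were lower and 0 higher (37 and 0 at an unadjusted p under 0.05, and 27 and 1 with DESeq2), where 7.63% of tested genes were lower and 19.5% higher. Among mt- genes 5 of 13 were lower and 0 higher. The median log2 fold change was -0.71 for nuclear members and -0.44 for mt- genes, against 0.12 for all genes. Complex V had the largest share, with 11 of 15 members lower, followed by complex IV with 8 of 13, complex III with 3 of 8, complex I with 9 of 35 and complex II with 1 of 4. Both replicates of cluster 7 lay below all replicates of the other clusters for 22 nuclear members and for mt-Co1, mt-Co2 and mt-Co3, as they did for 3.89% of tested genes.

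The c-ring of the ATP synthase is built from identical mature proteins that 3 genes encode, Atp5g1, Atp5g2 and Atp5g3. Atp5g2 had 178 and 67.1 CPM in cluster 7 against 413 ± 9.78 over the other clusters (log2 fold change -1.40, SE 0.22, adjusted p = 3.54e-06). Atp5g1 had 72.0 and 44.7 CPM against 208 ± 9.97 (-1.46, SE 0.29, adjusted p = 0.0001), and Atp5g3 had 67.2 and 22.4 CPM. All 3 were lowest in cluster 7. Atp5g1 was highest in cluster 8 at 459.6 ± 70.8 CPM, and Atp5g2 had overlapping replicates in clusters 8, 10 and 3. Atp5g3 had its highest mean in cDC1-like cluster 11, at 225 and 206 CPM. These overlapped cluster 3, with 163 and 217, and cluster 6, with 207 and 169.

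Ndufa11, a complex I subunit, had the largest change, with 19.2 and 11.2 CPM in cluster 7 against 82.6 ± 3.13 elsewhere (log2 fold change -2.11, SE 0.53, adjusted p = 0.00205). It rests on 2, 2, 0 and 1 UMIs in the 4 libraries of cluster 7, and the call was lost without library 1-2. Atp5h, the d subunit of the ATP synthase stalk, had 202 and 157 CPM against 502 ± 0.0154 (-1.27, SE 0.18, adjusted p = 4.91e-07). Uqcrh, the hinge protein of complex III, had 211 and 89.5 CPM against 467 ± 1.05. Cox4i1 had 466 and 469.9 CPM, near its 533 and 530.2 in cluster 2, with -0.71 as the log2 fold change (SE 0.15, adjusted p = 0.000407). Not all members were low. Cox8a had 442 and 626 CPM in cluster 7, above its 294 and 365 in cluster 0, and Cox6a1 had 139 and 224 CPM against 135 and 136, neither of them called.

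Of the 27 members named for cluster 7, 14 kept their call under every alternative, among them Atp5g1, Atp5g2, Atp5g3, Atp5h, Ndufa4, Ndufb11, Uqcrb, Uqcrh, Cox4i1, Cox7a2l, mt-Co1 and mt-Co2. The cluster also carried haemoglobin genes, with a summed erythroid marker level of 16274 CPM in replicate 1 and 11.2 in replicate 2. The nuclear sum was 8067 and 6981 CPM in these replicates, and the part of the haemoglobin-bearing cells was not tested. Median depth was 1601 UMIs per cell, and in cells under 3000 UMIs the mt- sum was 17074 and 20238 CPM. In the 20 cells of replicate 1 with more UMIs the mt- sum was 39379 CPM, near the 41747 of such cells in cluster 0 and above the 35611 in cluster 4, while the nuclear sum was 8715 against 9452 in cluster 0. Such cells of replicate 1 in the other clusters shown ranged from 32770 CPM in cluster 12 to 47293 in cluster 9. The deeper cells of cluster 7 lay within this range, below clusters 0, 1, 2, 5, 6, 9 and 11 and above clusters 4, 12 and 13. The mt- level of cluster 7 was thus lowest in its shallow cells, and the deeper value comes from 20 cells of 1 replicate.

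**Figure D5:**
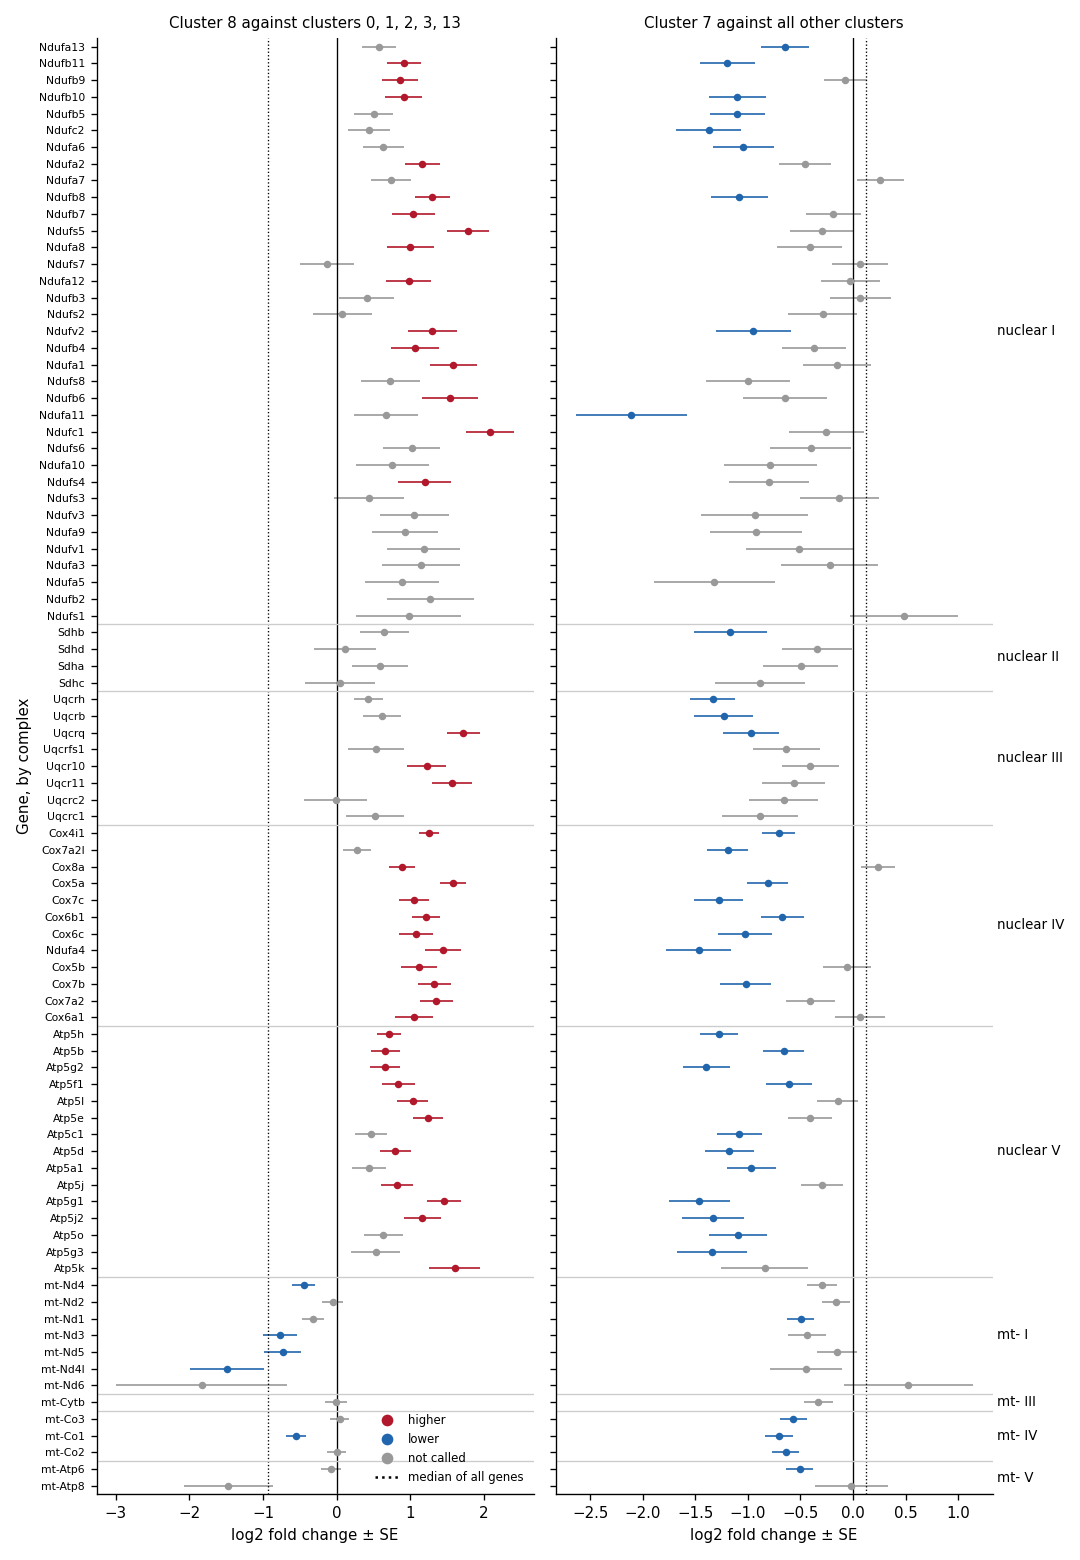
log2 fold change with its standard error (bars) for the tested members, by complex, in cluster 8 against the other macrophage clusters (left) and in cluster 7 against all other clusters (right). Red is called higher, blue called lower and grey not called, and the dotted line is the median of all genes tested. Members without a count in a compared cluster are not drawn. Of the 75 nuclear members, 72 lie above 0 for cluster 8 and 69 below 0 for cluster 7.

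Cluster 1, with Cd72 and Cx3cr1 among its 10 leading genes by fold, was set against resident-macrophage-like cluster 0. In cluster 1, 9 of 75 nuclear members were higher and 0 lower, with 12.3% of tested genes higher and 12.8% lower, so the share of higher members was near the background. The nuclear median was 0.28 against -0.01 for all genes, and 0 of 13 mt- genes were called by edgeR or DESeq2, with 0 at an unadjusted p under 0.05 by either tool. The largest changes were Ndufc2 (208 and 220.5 CPM against 133 and 144), Cox5a (284 and 277 against 192 and 179), Atp5g1 (178 and 180.0 against 107 and 135) and Atp5e (252 and 240.0 against 147 and 194). Ndufc2 had the largest log2 fold change, 0.68 (SE 0.19, adjusted p = 0.00567). Complex V, with 4 of 15, had the most calls for its size. None of the 9 calls was kept in all alternatives, and none remained without library 1-2.

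Macrophage clusters 0, 1, 2, 3, 8 and 13 were then compared with dendritic clusters 4, 11 and 12. Here 2 of 75 nuclear members were higher and 10 lower in the macrophage clusters, or 2.67% and 13.3%. Both shares were below the 10.6% higher and 18.6% lower of all tested genes. Among mt- genes 5 of 13 were higher. Medians were 0.01 for nuclear members, 0.27 for mt- genes and -0.13 for all genes. The nuclear median joins macrophage clusters whose nuclear sums lay above the dendritic clusters (3 and 8), below them (0, 1 and 2) and within their range (13, at 14600 ± 643 CPM). When shallow clusters 3, 8 and 10 were left out, 35 nuclear members were lower and 0 higher in macrophages, where 12.1% of 8925 tested genes were lower and 17.0% higher. The nuclear median was then -0.35 and the all-gene median 0.17, a shift of 0.31 from the value with these clusters.

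The members lower in macrophages were 6 of 15 tested in complex V, 2 of 8 in complex III and 2 of 13 in complex IV. The largest changes among them were in complexes III and V. Uqcrc2, a core subunit of complex III, had 116 and 132 CPM in cDC2-like cluster 4, with 123 and 131 in the cDC1-like and 144 and 186 in the mature-dendritic-cell-like cluster. It had 72.1 and 84.1 CPM in cluster 0 and 54.6 and 95.6 in cluster 8, so it was 1 of the nuclear genes that did not peak in cluster 8 (log2 fold change -0.86, SE 0.15, adjusted p = 1.55e-05). Uqcrfs1, the iron-sulfur protein of complex III, changed by -0.62 (SE 0.15, adjusted p = 0.00174). Atp5f1 and Atp5c1, of the stalks of the ATP synthase, had log2 fold changes of -0.49 and -0.45. The members higher in macrophages were Ndufa2 (0.51, SE 0.14, adjusted p = 0.00342) and Sdhb (0.66, SE 0.19, adjusted p = 0.00612). Mean Sdhb levels were 96.3, 101 and 31.3 CPM in dendritic clusters 4, 11 and 12. Macrophage clusters 0, 2 and 13 had 93.5, 76.2 and 89.8 CPM, and clusters 1, 3 and 8 had 119, 123 and 155. Sdhb was thus below every macrophage cluster only in cluster 12. All 12 of these calls were lost when library 2-2 was left out, which also left clusters 11, 12 and 13 with 1 sum each.

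The mt- genes called higher in macrophages were mt-Nd2, mt-Nd3, mt-Nd4, mt-Cytb and mt-Atp6, with log2 fold changes between 0.23 for mt-Atp6 and 0.43 for mt-Nd3. mt-Nd2 had 2374 ± 84.0 CPM over the macrophage clusters and 1790.1 ± 24.8 over the dendritic clusters (0.38, SE 0.09, adjusted p = 0.000547). The count fell to 0 without library 1-2, which also left clusters 8, 11, 12 and 13 with 1 sum each.

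In mature-dendritic-cell-like cluster 12, 2 of 75 nuclear members were higher and 4 lower than in cDC1-like cluster 11, or 2.67% and 5.33%. Both shares were below the 8.67% higher and 10.5% lower of all tested genes. Ndufb4, an accessory subunit of complex I, had 168 and 186 CPM in cluster 12 and 61.5 and 67.3 in cluster 11 (log2 fold change 1.53, SE 0.32, adjusted p = 0.000381), and cluster 12 had its highest mean of the 14 clusters, overlapping cluster 8 with 127 and 191. Cox5a was also higher, with 564 and 565 CPM against 425 and 329. Sdhb, the iron-sulfur subunit of complex II, went down to 36.0 and 26.6 CPM against 113 and 89.7 (-1.66, SE 0.48, adjusted p = 0.0107), its lowest of the 14 clusters. The sums of cluster 12 held 83383 and 150499 UMIs, so this low level rests on few counts. Ndufb11, Ndufa6 and Ndufa13 of complex I were lower too, by -1.17, -1.06 and -0.85. Members of complex I thus went both ways. Among mt- genes mt-Nd1 and mt-Nd3 were lower. Clusters 12 and 11 hold 44 and 47 cells. Without library 2-2 they kept 6 and 5 cells in replicate 2, under the 10 required, so each had 1 sum. The nuclear median was then -0.58, against -0.17 with all libraries. Without library 1-2 each also had 1 sum, and the median was -0.02.

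In cluster 6, which carried proliferation markers, 2 of 75 nuclear members were higher and 5 lower than in the other 13 clusters, against 17.4% and 2.36% of tested genes. Sdhb had 137 and 140 CPM against 97.0 ± 3.56 (log2 fold change 0.44, SE 0.15, adjusted p = 0.0372), and Atp5o, the oligomycin-sensitivity subunit of the ATP synthase, had 239 and 238 against 172 ± 15.6. Ndufa1, Ndufa6, Ndufa7, Ndufb4 and Cox7a2l were lower, by 0.41 to 0.57 on the log2 scale, and so was mt-Nd2. This split turned with scaling: by library totals without TMM, 13 nuclear members were higher and 0 lower, as the all-gene median moved from 0.27 to 0.46 on the log2 scale. The cluster also held 156 and 327 CPM of T and B cell markers. Their part was not tested.

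The rule takes in tissue isoforms whose genes are known from muscle, testis or hypoxic cells. Nearly all were rare in these cells, while Cox4i1, Cox6a1, Cox6b1, Cox7a2, Cox7a2l and Cox8a carried the counts. The exception was Ndufa4l2, a hypoxia-inducible relative of Ndufa4, with 74 of its 83 UMIs in cluster 9. It was found there in all 4 libraries (14, 30, 13 and 17 UMIs) and in 37 of 93 cells, with 132 and 66.5 CPM. No other cluster exceeded 4.07 CPM on average. Cluster 9 had fibroblast marker levels of 19406 and 15865 CPM. It also raised 3 of 4 smooth muscle cell markers, at 223 and 104 CPM in all, and no other cluster exceeded 67.1 CPM of these in a replicate. The part of either cell type in the Ndufa4l2 level was not tested. It was also the highest cluster for mt-Cytb, the cytochrome b of complex III, with 4948 and 5022 CPM against 3654 and 4884 in cluster 3, up to 4439 in cluster 10, and 2905 and 2864 in cluster 0.

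The 4 genes of complex II, which also works in the tricarboxylic acid cycle, had these ranges of means. Sdhb ranged from 31.3 CPM in cluster 12 to 155 in cluster 8, Sdhd from 59.0 in cluster 2 to 156 in cluster 3, Sdhc from 28.8 in cluster 7 to 88.9 in cluster 3, and Sdha from 40.9 in cluster 10 to 137 in cluster 8. None of them was called between cluster 8 and the other macrophage clusters.

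Within the mitochondrial genome, mt-Atp6 held 22.2% of mt- UMIs, mt-Co3 20.2%, mt-Co1 16.7% and mt-Co2 15.8%, while mt-Atp8 held 0.183% and mt-Nd6, the only one on the other strand, 0.0531%. These are shares of 3′ UMI counts, not corrected for length. The gene mt-Atp8 overlaps mt-Atp6 on the same strand (GRCm38, chrM:7766-7969, plus strand, with mt-Atp6 at chrM:7927-8607). mt-Nd4l likewise overlaps mt-Nd4. Both pairs are known to be made as joint transcripts, so the counts of their members cannot be fully told apart. The sequences of the upstream genes are shown because these are the rarest plus-strand mt- genes and their 3′ ends lie in the overlap. Capitals mark the bases shared with the downstream gene, 43 for mt-Atp8 and 7 for mt-Nd4l (chrM:9877-10173).
mt-Atp8: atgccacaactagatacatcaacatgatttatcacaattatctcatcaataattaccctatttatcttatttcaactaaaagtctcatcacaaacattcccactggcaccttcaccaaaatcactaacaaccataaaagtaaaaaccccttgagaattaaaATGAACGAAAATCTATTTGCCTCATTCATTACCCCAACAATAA
mt-Nd4l: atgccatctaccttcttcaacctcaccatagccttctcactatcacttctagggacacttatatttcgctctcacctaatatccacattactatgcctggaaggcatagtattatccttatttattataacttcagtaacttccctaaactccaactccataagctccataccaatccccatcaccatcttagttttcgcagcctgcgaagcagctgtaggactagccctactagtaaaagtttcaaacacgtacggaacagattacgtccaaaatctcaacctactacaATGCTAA

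The level of mt-Atp8 was 81.9 and 84.6 CPM in cluster 0 and 65.1 and 151 in cluster 3, but 18.2 and 41.0 in cluster 8, where it rests on 1 and 3 UMIs. mt-Nd4l had 137 and 153 CPM in cluster 0 and 91.0 and 27.3 in cluster 8, the latter from 5 and 2 UMIs, with none in libraries 1-1 and 2-2. At these counts the order of the clusters for these genes is not firm. mt-Nd6 stood at 48.8 and 80.1 CPM in cluster 3, its highest mean, from 6 and 17 UMIs, and had 0 and 1 UMIs in cluster 8.

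Nuclear respiratory genes are known targets of NRF1, of ETS factors such as GABPA and of YY1, so their promoters were searched because many members moved together. RefSeq promoters (GRCm38.p6, 250 bases before to 50 after the start) were found for 66 of the 83 nuclear members, with 71 promoters. The NRF1 motif, searched as the 10 letters in capitals below, which read the same on both strands, was in 5 of 71, or 7.04%, against 0.971% of 32851 promoters. CCGGAAG, an ETS motif searched on both strands, was in 22.5% against 8.86%, and the YY1 motif AAGATGGC in 12.7% against 2.75%. A match is a description and not a bound site. Genes with the NRF1 letters were Atp5g2, Atp5k, Cox6a1, Ndufa11 and Uqcrc1. Of these, Atp5k, Cox6a1 and Atp5g2 were higher in cluster 8, and Atp5g2 and Ndufa11 were lower in cluster 7. These are 3 and 2 of 5 genes, near the 53.3% and 42.7% of all tested nuclear members called so, and show nothing particular to the motif. The 150 bases before the start are printed for 2 of them, as members named above, on the minus strand at chr5:108434400-108434549 and chr15:102671048-102671197, with the NRF1 motif in capitals. It begins 50 bases before the start in Atp5k and 42 in Atp5g2.
Atp5k: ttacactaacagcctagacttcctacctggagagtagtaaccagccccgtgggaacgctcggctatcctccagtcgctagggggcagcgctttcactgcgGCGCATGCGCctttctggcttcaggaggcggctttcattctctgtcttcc
Atp5g2: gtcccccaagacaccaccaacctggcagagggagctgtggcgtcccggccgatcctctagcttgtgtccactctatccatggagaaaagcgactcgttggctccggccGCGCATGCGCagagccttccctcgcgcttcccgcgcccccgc

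Related genes outside the rule gave a mixed picture in cluster 8 against the other macrophage clusters, where 6.29% of all tested genes were higher and 12.9% lower. Of 66 tested mitochondrial ribosomal protein genes 14 were higher and 0 lower, with a median of 0.76. Carriers that feed the ATP synthase were higher in 3 of 10 tested, the adenine nucleotide translocases Slc25a4 (log2 fold change 1.15) and Slc25a5 (0.57) and the phosphate carrier Slc25a3 (0.52). Assembly factors were higher in 2 of 21, near the share of all tested genes. These were Tmem126a of complex I assembly (2.35) and the copper chaperone Cox17 (1.79). Among 9 tested electron carriers and subunits outside the rule, Cycs, which is cytochrome c, and Ndufab1 were higher (1.30 and 0.99) and Coq10b was lower (-2.06). The tricarboxylic acid cycle list had 0 of 15 genes called, with a median of -0.17, and the list for mitochondrial biogenesis and mtDNA expression 0 of 9, with a median of -0.98, near the -0.93 of all genes.

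In cluster 7, where 7.63% of all tested genes were lower and 19.5% higher, the carrier list was lower in 6 of 10 genes, with a median of -1.12. Among these were Slc25a4 (-1.64) and the channel genes Vdac1 (-1.90) and Vdac3 (-1.42). Vdac1 had 28.8 CPM in replicate 1 and 0 in replicate 2 of cluster 7, and Vdac3 had 33.6 and 0. Both thus rest on few UMIs. The mitochondrial ribosomal proteins had 2 higher and 10 lower of 66. Assembly factors had 2 higher and 0 lower of 21, Cox17 (1.34) and Ttc19 (1.27), a smaller share higher than for all tested genes. Ttc19 had 51.2 CPM in cluster 7 and 38.8 elsewhere, with no count in 1 of the compared clusters. Of the 9 electron carriers and other subunits 2 were higher, Coq10b (1.49) and the mitochondrial glycerol phosphate dehydrogenase gene Gpd2 (2.09). Gpd2 had 68.8 CPM in cluster 7 and 37.0 elsewhere, with no count in 2 compared clusters. Its log2 fold change thus exceeds that of these means. In the same list 3 genes were lower, among them the electron transfer flavoprotein gene Etfa (-2.08), at only 14.4 and 11.2 CPM in cluster 7. The median of the list was -0.56. Gpd2 and Coq10b were lower in macrophages than in dendritic clusters (-3.25 and -1.34). So were Cycs (-0.88), the citrate synthase gene Cs (-1.04) and the complex II assembly factor Sdhaf1 (-1.63). For Cycs and Sdhaf1 this did not hold in each dendritic cluster. Cycs had 102 CPM over the macrophage clusters, 304 in cluster 11 and 96.4 in cluster 12. Sdhaf1 had 15.4 CPM over the macrophage clusters, 10.7 in cluster 11 and 216 in cluster 12. Gpd2 had 18.3 CPM over the macrophage and 86.5 over the dendritic clusters, with no count in 1 of the compared clusters. In that comparison the tricarboxylic acid cycle list had 2 of 15 genes higher, the isocitrate dehydrogenase genes Idh2 (1.49) and Idh3b (0.90), and 3 lower. These shares are near the 10.6% higher and 18.6% lower of all tested genes. Sdhaf1 went up in cluster 12 over cluster 11 by 4.39, to 192 and 239 CPM from 10.2 and 11.2, where Sdhb itself was lower. The low levels of both genes rest on few UMIs.

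The non-members whose levels over the 28 sums were most like the nuclear sum were Rpl41 (Pearson correlation 0.95), Rps2 (0.90), Rpl31 (0.90), Eif3k (0.90) and Nedd8 (0.88), on log2 of CPM plus 10. Rpl41, a ribosomal protein gene, had 2525 CPM in cluster 8, 1783 in cluster 3, 819 in cluster 0 and 569.5 in cluster 7, the same order as the nuclear members. The sums share libraries and totals, so the correlations are a description.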

How the data were processed

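Counts are whole UMI counts per gene and cell, as deposited by the authors with their cluster numbers. Reads were aligned to mm10 and processed with Cell Ranger 3.0.2 and Seurat 3.1.1, per the submitters' processing notes, which give no order. The authors also deposited the percent of mt- counts per cell, which was recomputed from the counts and matched. No further cell was removed and no doublet caller was run. Counts were summed per cluster and biological replicate (28 sums of 34464 to 1961236 UMIs) and tested with edgeR 4.0.16 (quasi-likelihood, filterByExpr, TMM, replicate as a block because a replicate's clusters come from the same animals, 13 residual degrees of freedom, Benjamini-Hochberg over 6657 genes, adjusted p under 0.05). R 4.3.3 and DESeq2 1.42.0 were used. Named members were all mt- genes, up to 4 called nuclear members per direction with the largest change, at least 50 CPM and the same direction in both replicates, the 2 most counted per complex, and isoform groups. Other members were named after their values were seen. The members and lists were chosen with earlier results of these data known. Alternatives were other scalings, filters and samples. A sum of under 10 cells was left out of a fit, or of under 5 cells with the 4 libraries as samples. Positions are from GENCODE M21 (GRCm38), which held 95 of 96 members.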

Additional observations from a re-analysis of the deposited data

Results flagged for a closer look

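The summed nuclear level was tested for a library far from the other 3 in each cluster, and so was the mt- level, giving 28 groups of 4 libraries. Dixon's ratio passed its 95% critical value in 2 of them, where about 5% of groups do so by chance. In monocyte-like cluster 5, library 2-1 had a nuclear sum of 14518.9 CPM from 31 cells, with a ratio of 0.879. In cluster 6, library 1-1 had an mt- sum of 51629.2 CPM from 7 cells.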

How the results depend on the processing

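Of the alternatives for single members, 895 kept direction and call, 302 kept direction and lost the call, and 0 reversed. All counts below are of members called. For macrophage against dendritic clusters, nuclear members higher (2) became 4 with DESeq2, 5 by library totals, 0 without clusters 3, 8 and 10 and 4 without the 5% of cells with most UMIs. Nuclear members lower (10) became 35 without clusters 3, 8 and 10, and mt- genes higher (5) became 8 with DESeq2 and 1 over 4 libraries. For cluster 8 against other macrophage clusters, mt- genes lower (5) became 1 with DESeq2, 2 without the replicate block, 10 over 4 libraries and 1 without the deepest cells, while nuclear members higher ranged from 27 over 4 libraries to 52 with DESeq2. For cluster 8 against cluster 3, nuclear members higher (3) became 13 with DESeq2, 5 by totals and 2 over 4 libraries, nuclear members lower (0) became 1 over 4 libraries, and mt- genes lower (8) became 1 with DESeq2, 3 by totals, 5 without a filter, 13 over 4 libraries and 3 without the deepest cells. For cluster 1 against 0, nuclear members higher (9) became 14 without a filter, 18 over 4 libraries and 14 without clusters 3, 8 and 10, and lower (0) became 1 with DESeq2, by totals, over 4 libraries and without the deepest cells. For cluster 7, nuclear members higher (0) became 1 with DESeq2, and mt- genes lower (5) became 8 by totals and over 4 libraries. For cluster 6, nuclear members higher (2) became 13 by totals, 0 without a filter, 1 without the replicate block, 7 over 4 libraries, 4 without clusters 3, 8 and 10 and 0 without the deepest cells. Nuclear members lower (5) became 0 by totals, 1 without a filter, 1 over 4 libraries, 0 without clusters 3, 8 and 10 and 3 without the deepest cells, and mt- genes lower (1) became 0 by totals, without a filter, over 4 libraries and without the deepest cells. For cluster 12 against 11, nuclear members higher (2) became 4 with DESeq2, 1 without a filter and 1 over 4 libraries, lower (4) became 2 with DESeq2, and mt- genes lower (2) became 0 with DESeq2, without a filter, over 4 libraries and without the deepest cells. The cause was not tested. DESeq2's scaling moved the all-gene median from -0.93 to -0.48 for cluster 8 against other macrophage clusters.

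When each library was left out in turn, sums of under 10 cells were left out too. Without library 1-2, clusters 6 and 8 to 13 had 1 sum each, and without library 2-2, clusters 11, 12 and 13. Ranges for clusters 6, 8 and 12 and for the dendritic clusters include such fits. Calls lost there cannot be laid to the library alone. Counts ranged as follows. Nuclear members higher in cluster 8 than in other macrophage clusters ran from 19 to 38 and mt- genes lower from 0 to 3, and against cluster 3 from 0 to 4 and 0 to 5. Higher in cluster 1 ran from 0 to 16. In cluster 7, nuclear members lower ran from 24 to 33 and mt- genes lower from 2 to 8. In cluster 6, higher ran from 0 to 2, lower from 0 to 2 and mt- lower from 0 to 1. In cluster 12, higher ran from 0 to 2, lower from 0 to 3 and mt- lower was 0. For macrophage against dendritic clusters, higher ran from 0 to 4, lower from 0 to 10 and mt- higher from 0 to 5. The 2 biological replicates and the 105 cells of cluster 8 limit precision. The p-values do not allow for the clusters having been drawn from the same counts.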
